A study of Mus musculus with 16 samples.

Results

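The genes that commonly mark Kupffer cells, the resident macrophages of the liver, were followed in tumor RNA of 16 mice with liver metastasis. The 9 members, of 21959 genes listed in each count table, were Clec4f, Vsig4, Timd4, Cd5l, Marco, Cd163, Folr2, Slc40a1 and Fcna, and they were found by Ensembl identifier through the GRCm39 gene symbols. All 9 passed the filter on low counts and were tested. The tumors grew from MC38, a mouse colon adenocarcinoma line, after injection into the spleen of male C57BL/6 mice that were 6 weeks old. There were 4 mice in each of 4 groups: PBS control, SB525334 at 20 mg/kg, KN046 at 10 mg/kg, and both agents at those doses, called the combination here. SB525334 is an oral inhibitor of the type I TGF-β receptor (ALK5), and KN046 is an injected bispecific antibody to PD-L1 and CTLA-4. Every group therefore carried the same host strain and the same tumor line, and no group held liver without tumor.

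Kupffer cells line the liver sinusoids, take up particles, bacteria and aged red cells from the blood, and recycle iron. Their identity depends on signals from neighboring hepatocytes, sinusoidal endothelium and stellate cells, among them Notch ligands, bone morphogenetic proteins and TGF-β. Clec4f is the member most restricted to Kupffer cells in the mouse, whereas Cd163, Slc40a1, Marco and Cd5l are also found in other tissue macrophages, including those of the spleen.

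Each mouse gave 18368994 to 23877131 counts. Control mice 1 and 2, and control mice 3 and 4, were closer to each other (median chi-square between counts per gene 1.25 and 0.956) than the other 22 pairs of mice within groups (2.82 or more). In all 9 members both mice of the first control pair lay above both mice of the second, by 2.63-fold for Clec4f and 2.67-fold for Timd4 but by 1.09-fold for Marco, while Alb differed by a ratio of 0.949. The share of all genes split in this way is not given. The split was not particular to the members, since Csf1r and C6, described below, were also higher in the first pair, and Trf was higher in the second. Nothing in the labels says that the paired libraries came from separate animals, so each comparison with control, the ratios below included, was also run with either pair left out and with the pairs merged. The p-values and SDs measure the spread between these samples, counted here as 1 mouse each. If the paired libraries are repeats, the control group holds fewer animals than its labels, and its SDs and p-values are not over 4 animals.

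The 250 bases before the RefSeq start of a member were read from the RefSeq promoter table (GRCm38.p6) for 8 of the 9 members, and each was found once in GRCm39 by exact match. No entry was used for Slc40a1. Each window was searched on both strands for GGAAGT, an ETS core of the type bound by PU.1, the factor that macrophages depend on, and for TGGGAA, the core bound by RBPJ, which relays Notch signals. GGAAGT was present in 5 of the 8 windows (Clec4f, Vsig4, Timd4, Folr2 and Fcna) and in 20% of 27025 promoter windows of the same length. TGGGAA was present in 3 of the 8 (Clec4f, Marco and Fcna) and in 21.5% of all windows, and in Clec4f it shared 4 letters with GGAAGT. The windows of 4 members are printed below, chosen because Vsig4 was lower with the combination than with SB525334 while Timd4, Marco and Cd5l did not pass the test for that difference, and capitals mark either motif on either strand. They are chrX:95337045-95337294 (minus strand) for Vsig4, chr11:46701376-46701625 (plus strand) for Timd4, chr1:120432754-120433003 (minus strand) for Marco and chr3:87264938-87265187 (plus strand) for Cd5l.
Vsig4: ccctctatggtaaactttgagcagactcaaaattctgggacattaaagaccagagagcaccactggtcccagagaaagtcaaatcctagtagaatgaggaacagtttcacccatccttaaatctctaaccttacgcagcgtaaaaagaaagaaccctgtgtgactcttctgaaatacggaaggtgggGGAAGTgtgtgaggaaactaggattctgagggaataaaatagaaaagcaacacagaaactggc
Timd4: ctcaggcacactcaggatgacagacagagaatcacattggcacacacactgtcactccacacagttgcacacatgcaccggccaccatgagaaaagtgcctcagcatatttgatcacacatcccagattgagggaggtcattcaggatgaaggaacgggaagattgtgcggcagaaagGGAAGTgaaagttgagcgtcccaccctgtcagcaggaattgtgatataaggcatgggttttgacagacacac
Marco: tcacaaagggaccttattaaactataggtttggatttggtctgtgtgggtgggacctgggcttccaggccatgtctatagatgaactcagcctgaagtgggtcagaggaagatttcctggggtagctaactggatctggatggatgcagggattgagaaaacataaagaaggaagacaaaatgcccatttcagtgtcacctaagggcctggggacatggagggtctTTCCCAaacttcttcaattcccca
Cd5l: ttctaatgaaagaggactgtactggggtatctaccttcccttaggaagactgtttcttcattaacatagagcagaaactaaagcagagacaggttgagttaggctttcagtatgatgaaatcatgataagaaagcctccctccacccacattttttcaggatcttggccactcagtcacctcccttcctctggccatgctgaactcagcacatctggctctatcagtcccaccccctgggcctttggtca
The GGAAGT of Vsig4 lay 63 to 58 bases before the start and that of Timd4 72 to 67 bases before it. Marco held TGGGAA on the opposite strand 24 to 19 bases before the start, and Cd5l held neither motif. Other motifs searched included AGGTCA, a nuclear receptor half-site (Clec4f and Timd4, 13.8% of all windows), CAGACA, of the SMAD-box type (Timd4, 17.1%), and a motif of the interferon-response type (0 of 8 members, 3.04%). These are letters in a window and not measured binding.

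Levels between genes were compared per length, as TPM (length-scaled transcript abundance with a common total) computed from the counts and the exon length of each gene. In the control group the most abundant member was Cd5l, at 222 ± 120 TPM (SD, n = 4 mice), followed by Marco at 127 ± 18.6 TPM, Vsig4 at 95.7 ± 39.7 TPM and Clec4f at 92.1 ± 54.5 TPM. The ranges of these 4 overlapped across mice. Within each control mouse Cd5l was the highest of them, but in mouse 3 only by 114.7 TPM against 114.4 TPM for Marco. Slc40a1 (28.5 ± 15.9 TPM), Fcna (22.2 ± 9.90 TPM), Cd163 (12.7 ± 6.35 TPM) and Timd4 (8.94 ± 5.36 TPM) formed a lower range whose neighbors also overlapped across mice. Within each control mouse Fcna was above Cd163, and Cd163 above Timd4. Folr2 was lowest, at 2.64 ± 1.31 TPM. Values below are CPM, counts scaled to a common library size by TMM, which serve to compare 1 gene between mice.

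**Figure D1:**
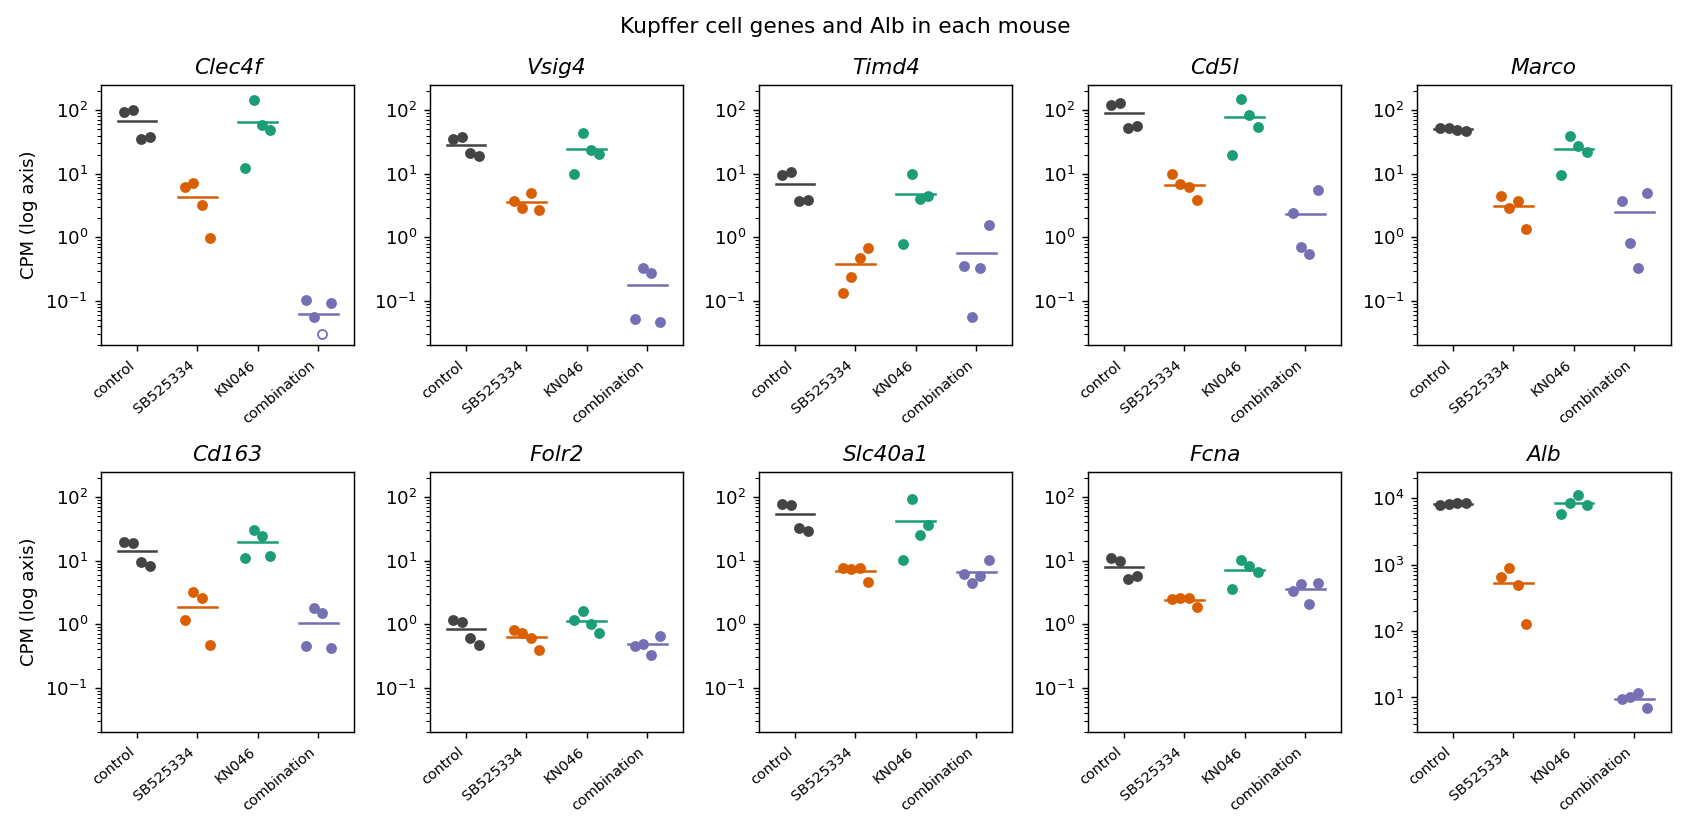
Each point is 1 mouse and each line a group mean, in CPM on a log axis, for the 9 Kupffer cell genes and for the hepatocyte gene Alb, whose axis has its own range. The open point is combination mouse 3, in which Clec4f had 0 counts and which is drawn at the lower edge. Clec4f and Vsig4 stand lower with the combination than with SB525334, while the points of the other 7 members overlap between those groups.

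Clec4f (ENSMUSG00000014542, chromosome 6 of GRCm39, 83621524 to 83633169, minus strand) encodes a C-type lectin of the Kupffer cell surface. It was measured at 94.6, 100.2, 35.8 and 38.3 CPM in the control mice, at 6.15, 7.16, 3.23 and 0.990 CPM with SB525334, at 12.4, 147, 58.7 and 48.1 CPM with KN046, and at 0.103, 0.0552, 0 and 0.0942 CPM with the combination. The control and KN046 mice overlapped, all SB525334 mice lay below both, and all combination mice lay below the SB525334 mice. The 4 combination mice together held 5 Clec4f counts, against 5720 in the control mice, a summed level 1065-fold lower (exact 95% interval 456 to 3282, counting error only). With SB525334 its log2 change was -3.94, with an SE of 0.64 and an adjusted p of 2.32e-04 in edgeR, which gave every SE and adjusted p below unless another test is named.

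Vsig4 (ENSMUSG00000044206, X chromosome, 95290807 to 95337044, minus strand) encodes a complement receptor that binds C3b and iC3b and is also a co-inhibitory ligand for T cells. Its values were 35.4, 37.7, 21.3 and 19.4 CPM in the control mice, 3.71, 2.91, 4.99 and 2.67 CPM with SB525334, 9.91, 43.9, 23.7 and 20.3 CPM with KN046, and 0.0513, 0.331, 0.273 and 0.0471 CPM with the combination. The groups fell in the same order as for Clec4f, without overlap between the combination, SB525334 and the other mice. The combination mice held 13 Vsig4 counts in all against 2396 in the control mice, 172-fold lower (100.2 to 323). Against the control group its log2 change with SB525334 was -2.99 (SE 0.39, adjusted p = 2.54e-05).

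Timd4 (ENSMUSG00000055546, chromosome 11, 46701620 to 46735177, plus strand) encodes TIM-4, a receptor for phosphatidylserine on dying cells that marks long-lived resident macrophages. Its values were 9.75, 10.6, 3.80 and 3.81 CPM in the control mice, 0.136, 0.239, 0.473 and 0.689 CPM with SB525334, 0.799, 9.82, 4.02 and 4.52 CPM with KN046, and 0.359, 0.0552, 0.327 and 1.56 CPM with the combination. SB525334 and combination mice overlapped, and both groups lay below all control mice. Combination mouse 4 held 33 of the 47 Timd4 counts of its group.

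Cd5l (ENSMUSG00000015854, chromosome 3, 87265182 to 87278380, plus strand) encodes a secreted scavenger protein that macrophages make under control of the liver X receptor. It had 120.5, 130.5, 52.0 and 55.8 CPM in the control mice, 9.81, 6.88, 6.11 and 3.88 CPM with SB525334, 19.7, 151, 85.0 and 54.5 CPM with KN046, and 2.41, 0.717, 0.546 and 5.65 CPM with the combination. The combination mice spread over 10.4-fold, and mouse 4 of that group lay inside the SB525334 range.

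Marco (ENSMUSG00000026390, chromosome 1, 120402267 to 120432753, minus strand), a scavenger receptor for bacteria and particles, varied least within the control group, at 52.3, 52.1, 48.9 and 46.6 CPM. It had 4.47, 2.91, 3.74 and 1.34 CPM with SB525334, 9.75, 39.7, 27.8 and 22.0 CPM with KN046, and 3.75, 0.827, 0.327 and 5.04 CPM with the combination. All KN046 mice lay below all control mice. The combination mice spread over 15.4-fold, with mice 1 and 4 near the SB525334 values and mice 2 and 3 below them.

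Cd163 and Slc40a1 handle hemoglobin and iron, and Fcna acts in the complement cascade. Cd163 (ENSMUSG00000008845, chromosome 6, 124281606 to 124307560, plus strand), the receptor for haptoglobin bound to hemoglobin, had 19.3, 18.9, 9.63 and 8.31 CPM in the control mice, 1.18, 3.18, 2.58 and 0.474 CPM with SB525334, 11.0, 29.9, 24.3 and 11.8 CPM with KN046, and 0.462, 1.82, 1.47 and 0.424 CPM with the combination. In contrast to Cd5l and Marco, the higher combination mice for Cd163 were 2 and 3. Slc40a1 (ENSMUSG00000025993, chromosome 1, 45947211 to 45965683, minus strand) encodes ferroportin, which exports iron from the cell. Its values were 76.3, 74.4, 32.8 and 29.2 CPM in the control mice, 7.68, 7.36, 7.66 and 4.61 CPM with SB525334, 10.1, 94.7, 25.3 and 36.0 CPM with KN046, and 6.16, 4.47, 5.78 and 10.2 CPM with the combination. SB525334 and the combination overlapped over most of their range. Fcna (ENSMUSG00000026938, chromosome 2, 25514671 to 25519013, minus strand) encodes ficolin A, a secreted lectin that starts the complement cascade. It had 10.9, 9.89, 5.17 and 5.75 CPM in the control mice, 2.53, 2.59, 2.54 and 1.89 CPM with SB525334, 3.62, 10.3, 8.32 and 6.54 CPM with KN046, and 3.29, 4.25, 2.07 and 4.48 CPM with the combination. All SB525334 and combination mice lay below the lowest control mouse, but by a smaller distance than for the members above.

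Folr2 (ENSMUSG00000032725, chromosome 7, 101489195 to 101506401, minus strand) encodes folate receptor β, which is also carried by perivascular and tumor-associated macrophages. It had 1.18, 1.09, 0.608 and 0.470 CPM in the control mice, 0.813, 0.716, 0.602 and 0.388 CPM with SB525334, 1.17, 1.60, 1.01 and 0.727 CPM with KN046, and 0.462, 0.497, 0.327 and 0.660 CPM with the combination. The 4 groups held 71, 59, 87 and 38 counts, and the treated groups each overlapped the controls. Exons of Folr2, Slc40a1 and Fcna overlap those of a gene on the opposite strand (Gm10602, Gm69542 and Fcnaos), and the strand setting of the counting is not given in the sources used here, so reads of the partners cannot be told apart.

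The first comparison asked what TGF-β receptor inhibition alone did to these genes. With SB525334, 8 of 9 members fell, against 9.22% of all 13968 genes tested that were called lower (adjusted p under 0.05, edgeR). The member median was -2.99 on the log2 scale and that of all genes 0.00. The log2 changes of the other called members were -4.17 for Timd4 (SE 0.77, adjusted p = 9.18e-04), -3.75 for Cd5l (0.61, adjusted p = 2.28e-04), -4.00 for Marco (0.55, adjusted p = 3.97e-05), -2.91 for Cd163 (0.53, adjusted p = 7.42e-04) and -2.96 for Slc40a1 (0.52, adjusted p = 5.28e-04). Fcna fell least, by 1.73 (0.33, adjusted p = 0.00121). Folr2 had a log2 change of -0.42 (0.39, adjusted p = 0.656). Without control mice 1 and 2, Fcna had a log2 change of -1.19 and an adjusted p of 0.0624, so that 7 members fell. Alb moved beside them, from 7840 to 8411 CPM in the control mice to 129 to 874 CPM with SB525334, a log2 change of -3.94 (0.40, adjusted p = 2.22e-06). In bulk RNA, a smaller share of liver tissue in the sample, fewer Kupffer cells and less of these transcripts per cell cannot be told apart.

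**Figure D2:**
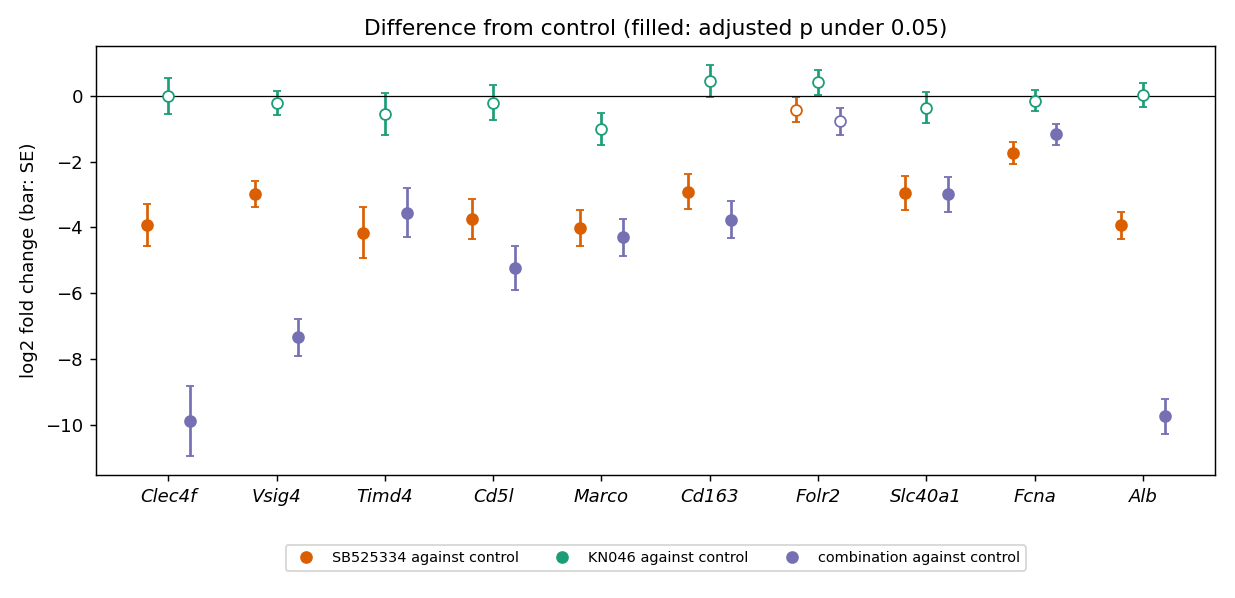
Points are log2 fold changes against the control group from edgeR with bars of 1 SE, for the 9 members and Alb. Filled points have an adjusted p under 0.05. With KN046 no member is filled, and with the combination Clec4f (-9.89) and Vsig4 (-7.34) stand lowest of the members, with Alb at -9.75, while Folr2 (-0.78) and Fcna (-1.17) stand nearest 0.

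The second comparison asked the same of KN046 alone. With KN046, 0 of 9 members were called, against 4% of all genes (edgeR), 1 member (Marco) had an unadjusted p under 0.05, and DESeq2 called 0. Marco stood at 24.8 ± 12.5 CPM (SD, n = 4 mice) with KN046 and at 50.0 ± 2.73 CPM in the control group, with a log2 change of -1.01 (SE 0.48, adjusted p = 0.214). For the other 8 members the log2 fold changes lay between -0.54 (Timd4) and 0.45 (Cd163), with SEs of 0.32 to 0.64, and the KN046 and control mice overlapped. Alb had a log2 change of 0.03 (0.36, adjusted p = 0.972). The spread within the KN046 group was wide. Mouse 2 was the highest of its group in 9 of 9 members and mouse 1 the lowest in 8 of 9, and Clec4f differed 11.8-fold between the highest and lowest mouse. The share of all genes with these ranks is not given. The summed macrophage genes described below were also highest in mouse 2 (2134 CPM) and lowest in mouse 1 (1044 CPM), so the order was not particular to the members. Without control mice 1 and 2 the log2 changes of Clec4f, Cd5l and Slc40a1 were 0.84, 0.53 and 0.42, and those of Timd4, Vsig4 and Fcna were also above 0, so no direction can be read for these members.

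The combination shared its control mice with both comparisons above. With the combination, 8 of 9 members fell, against 9.74% of all genes called lower (edgeR), and the member median was -3.76 on the log2 scale against 0.01 for all genes. The log2 changes of Clec4f and Vsig4 were -9.89 (SE 1.05, adjusted p = 1.17e-06) and -7.34 (0.57, adjusted p = 1.85e-08). Those of the others were -5.23 for Cd5l (0.67, adjusted p = 1.26e-05), -4.30 for Marco (0.56, adjusted p = 1.52e-05), -3.76 for Cd163 (0.57, adjusted p = 8.52e-05), -3.56 for Timd4 (0.75, adjusted p = 0.00245) and -2.99 for Slc40a1 (0.52, adjusted p = 4.03e-04). Fcna fell by 1.17 (0.32, adjusted p = 0.0232), and Folr2 had a log2 change of -0.78 (0.40, adjusted p = 0.273). The call on Fcna was lost when the control pairs were merged (adjusted p = 0.0810), without control mice 1 and 2 (-0.64, adjusted p = 0.496), without control mouse 1 alone, without control mouse 2 alone (adjusted p = 0.0801), and without combination mouse 3 (adjusted p = 0.0936), and that on Timd4 without control mice 1 and 2 (-2.69, adjusted p = 0.0624), so that 6 members fell without that pair. Alb, at 7.07 to 11.6 CPM in the combination mice, fell by 9.75 (0.53, adjusted p = 4.72e-10).

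Set directly against SB525334 alone, the combination was lower in 2 of 9 members, Clec4f and Vsig4, against 3.03% of all genes called lower (edgeR). Clec4f was lower by a log2 change of -5.96 (SE 1.22, adjusted p = 0.00579) and Vsig4 by -4.35 (0.59, adjusted p = 1.34e-04). The other 7 members had log2 changes of -1.48 (Cd5l, SE 0.65, adjusted p = 0.447) to 0.61 (Timd4, 0.84, adjusted p = 0.968). Slc40a1 averaged 6.83 ± 1.49 CPM (SD, n = 4 mice) with SB525334 and 6.65 ± 2.46 CPM in combination mice, with a log2 change of -0.03 (0.52). Alb had a log2 change of -5.81 (0.45, adjusted p = 2.71e-07) in this comparison.

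The interaction term tests whether the SB525334 effect was of a different size with and without KN046. The 2 members called were Clec4f, with an interaction of -5.94 (SE 1.41, adjusted p = 0.0213), and Vsig4, with -4.13 (0.71, adjusted p = 0.00217), against 2.55% of all genes called lower (edgeR). The Clec4f term lost its call when the control pairs were merged (adjusted p = 0.0556), without control mice 3 and 4 (0.0646) and without combination mouse 2, 3 or 4 (0.0503 to 0.0572), so that 1 member was then called. For the other 7 members the term lay between -1.30 (Cd163) and 1.15 (Timd4), with SEs of 0.46 to 1.05. Alb had an interaction of -5.84 (0.55, adjusted p = 6.01e-06).

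Against KN046 alone, 9 of 9 members were lower with the combination (14.5% of all genes were called lower) and 8 of 9 with SB525334 (13.5%), in edgeR. Folr2 had a log2 change of -1.20 in the first (SE 0.40, adjusted p = 0.0381) and -0.84 in the second (0.38, adjusted p = 0.130). Between the combination and KN046, Folr2 lost its call in 9 of the alternatives run and Fcna in 4, and with single mice left out 7 to 9 members were called. Timd4, Slc40a1 and Fcna were called lower with the combination although the mice overlapped, and KN046 mouse 1 was the lowest of its group for each.

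To set the members against macrophages in general, each was divided by the summed CPM of 12 genes that macrophages share (Adgre1, Csf1r, Cd68, Lyz2, C1qa, C1qb, C1qc, Cd14, Fcgr1, Mpeg1, Ctss and Aif1) in the same mouse. That sum was 2214 to 2322 CPM in the control mice, 1872 to 3011 with SB525334, 1044 to 2134 with KN046 and 2175 to 3071 with the combination, and 0 of its 12 genes were called in each comparison with control (edgeR). At an unadjusted p under 0.05 there were 6 with KN046 and 0 in the other comparisons, and DESeq2 called 1 (lower with KN046) and otherwise 0. The 9 members together amounted to 9.16% to 18.8% of the macrophage sum in the control mice, 7.51% to 24.7% with KN046, 0.621% to 1.71% with SB525334 and 0.461% to 0.916% with the combination.

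For single members this ratio was lower than in any control mouse in all 4 mice for 8 of 9 members with SB525334 (12% of all genes) and for 8 of 9 with the combination (13.2% of all genes). Folr2 overlapped the controls in both. Marco counted 20.5 to 23.0 per 1000 pan-macrophage counts in the control mice, 0.490 to 2.00 with SB525334 and 0.136 to 1.72 with the combination. Between the combination and SB525334, the groups were apart for Clec4f (0 to 0.0472 against 0.364 to 3.28 per 1000) and Vsig4 (0.0153 to 0.142 against 0.980 to 2.67 per 1000), both lower with the combination (3.09% of all genes). With KN046, Marco was lower (9.34 to 19.7 per 1000) and Folr2 higher, where 28.9% of all genes were apart in either direction. Without control mice 1 and 2, 5 members were apart, and the share of all genes is not given for that setting. Folr2 was apart only with the 0.5 CPM added for the log2 scale, and without it the mice overlapped (0.473 to 1.12 against 0.207 to 0.519 per 1000 in the control mice). KN046 was above SB525334 and above the combination in 9 of 9 members, where 25.4% and 34.7% of all genes were apart in that direction. Some of the macrophage genes moved too, and 4 of 12 were called higher with SB525334 than with KN046 (median log2 change 0.56) and 7 of 12 higher with the combination than with KN046 (median 0.55, edgeR). Of all 13968 genes tested, 905 and 1381 were called higher in those comparisons. Groups of 4 that do not overlap give the smallest exact two-sided permutation p that 4 against 4 mice allow, 0.0286, or 0.0406 after adjustment over the 54 tests.

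**Figure D3:**
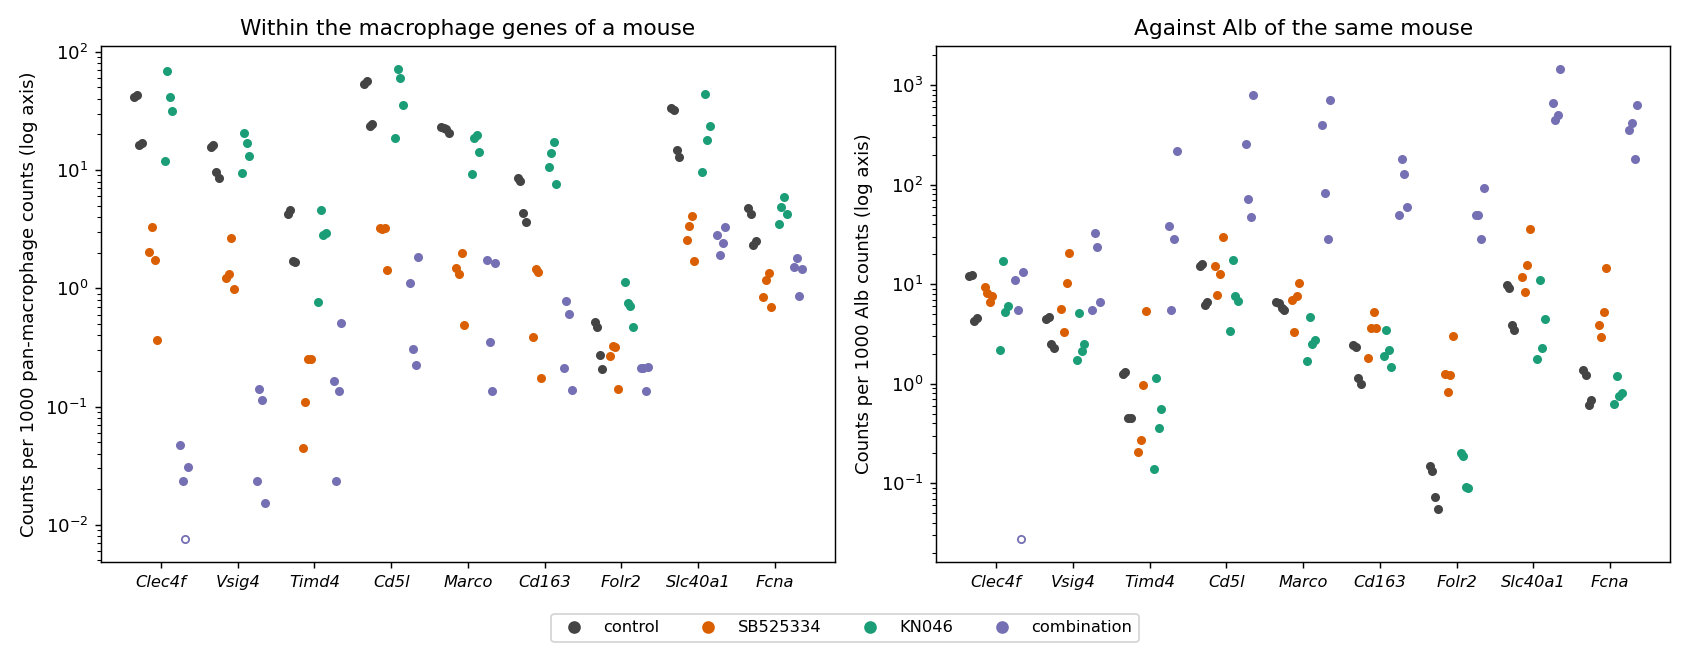
The left panel gives each member per 1000 counts of 12 pan-macrophage genes and the right panel per 1000 Alb counts of the same mouse, both on log axes, with 1 point a mouse. The open point is the combination mouse without Clec4f counts and has no height of its own. On the left the SB525334 and combination points lie below the controls for all members but Folr2, and on the right the combination points of the members other than Clec4f lie above the controls.

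Alb, the most abundant gene of the hepatocyte list, gives the level of liver parenchyma RNA in the same sample. Relative to Alb, 98.5% of all genes were higher with SB525334 than in any control mouse, and 99.9% with the combination, so nearly every gene was higher on this scale. With SB525334, 3 of 9 members were apart from the controls, all higher (Cd163, Folr2 and Fcna, adjusted p = 0.0468 each by an exact permutation test), and the other 6 overlapped. Cd163 was apart only with the 0.5 CPM added, and without it the mice overlapped (1.81 to 5.30 against 0.988 to 2.47 per 1000 Alb counts). Per 1000 Alb counts summed over the group, Clec4f was 8.45 in the control group (exact 95% interval 8.23 to 8.67, counting error only) and 8.18 (7.40 to 9.01) with SB525334. Marco was 6.14 (5.95 to 6.33) and 5.73 (5.08 to 6.43), and Cd5l 11.2 (11.0 to 11.5) and 12.3 (11.3 to 13.3). Vsig4 was 3.54 (3.40 to 3.69) and 6.58 (5.89 to 7.32), Slc40a1 6.68 (6.49 to 6.88) and 12.6 (11.7 to 13.7), and Cd163 1.76 and 3.50. Fcna stood at 0.990 and 4.42 and Folr2 at 0.105 and 1.17 per 1000 Alb counts. These group sums weigh SB525334 mouse 2, which had the most Alb, above the others. In Timd4 the SB525334 mice spread too widely for a single value, at 0.209, 0.273, 0.971 and 5.35 per 1000 Alb counts against 0.453 to 1.31 in the control mice.

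The control pairs bear on these ratios. Without SB525334 mouse 2, 6 of 9 members were apart from the controls against Alb, and without control mice 1 and 2 there were 8, all higher. Without control mice 3 and 4 there were 4, of which 3 were higher and 1 lower, and 3 with the pairs merged. Groups of 2 control mice overlap others less readily, and 4 against 2 allow no exact two-sided p below 0.133, so these counts carry no test. Against the pan-macrophage genes, 8 or 9 members were lower than the controls with SB525334 and with the combination in all 3 of these settings. The share of all genes is not given for these settings. With all mice, 98.5% of all genes were higher against Alb with SB525334. Relative to the pan-macrophage genes, 12% of all genes were lower with SB525334 and 13.2% with the combination.

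With the combination the ratios to Alb spread widely. Clec4f stood at 6.88 per 1000 Alb counts (2.23 to 16.1), an interval that holds the control value, and Vsig4 at 17.9 (9.48 to 30.8), above its control value. The remaining members stood far higher: 52.3 (36.7 to 72.4) for Folr2, 64.6 (47.1 to 86.9) for Timd4, 107 (83.8 to 136) for Cd163, 261 (222 to 307) for Cd5l, 276 (235 to 324) for Marco, 377 (327 to 434) for Fcna and 719 (642 to 806) for Slc40a1. These intervals leave out the spread between mice. The single mice ran from 5.46 to 220 for Timd4, 47.2 to 800 for Cd5l, 28.3 to 713 for Marco and 443 to 1440 for Slc40a1. All 9 were counted as higher than the controls with a pseudocount of 0.5 CPM, where 99.9% of all genes were higher too, so this count is no trait of the members. Without a pseudocount there were 8 of 9, and Clec4f overlapped (0 to 13.3 against 4.27 to 12.4 per 1000). With KN046, Marco was the 1 member apart, at 1.70 to 4.65 per 1000 Alb counts against 5.54 to 6.66 in the control mice (7.05% of all genes were apart). In the same comparison 3 members were apart without control mice 1 and 2 (2 higher and 1 lower), and 3 without control mice 3 and 4 (all lower). The share of all genes is not given for these settings.

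Other genes known from Kupffer cells were described by a list of 14. With SB525334, 9 of 14 fell and with the combination 9 of 14, at medians of -1.85 and -1.91 (edgeR), and without control mice 1 and 2 the counts were 6 and 6. Beside this list and those below stand the shares of all genes called lower, 9.22% with SB525334 and 9.74% with the combination. With KN046 edgeR called 0, with 6 at an unadjusted p under 0.05, and DESeq2 called 1. C6, a terminal complement component, had 6.79 to 22.3 CPM in the control mice, 0.430 to 0.859 with SB525334 and 0.0546 to 0.565 with the combination, with log2 changes of -4.43 and -5.64 (adjusted p = 3.31e-05 and 4.73e-06). Hpgd, which inactivates prostaglandins, had log2 changes of -2.79 and -3.31, and Nr1h3, the liver X receptor α that maintains Kupffer cell identity, of -2.33 and -2.01 (adjusted p = 7.24e-04 and 0.00225). Axl, the most abundant gene of the list and also a receptor of other cells, had 1084 CPM in the control group and log2 changes of 0.12 and 0.23. Spic, the factor of iron-recycling macrophages, fell with SB525334 (-2.88, adjusted p = 0.0152) and had a log2 change of -0.79 with the combination (adjusted p = 0.524), where its values were 1.44, 0.607, 0.273 and 2.73 CPM. Mice 1 and 4 were the higher ones, as for Cd5l, Marco and Timd4.

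**Figure D4:**
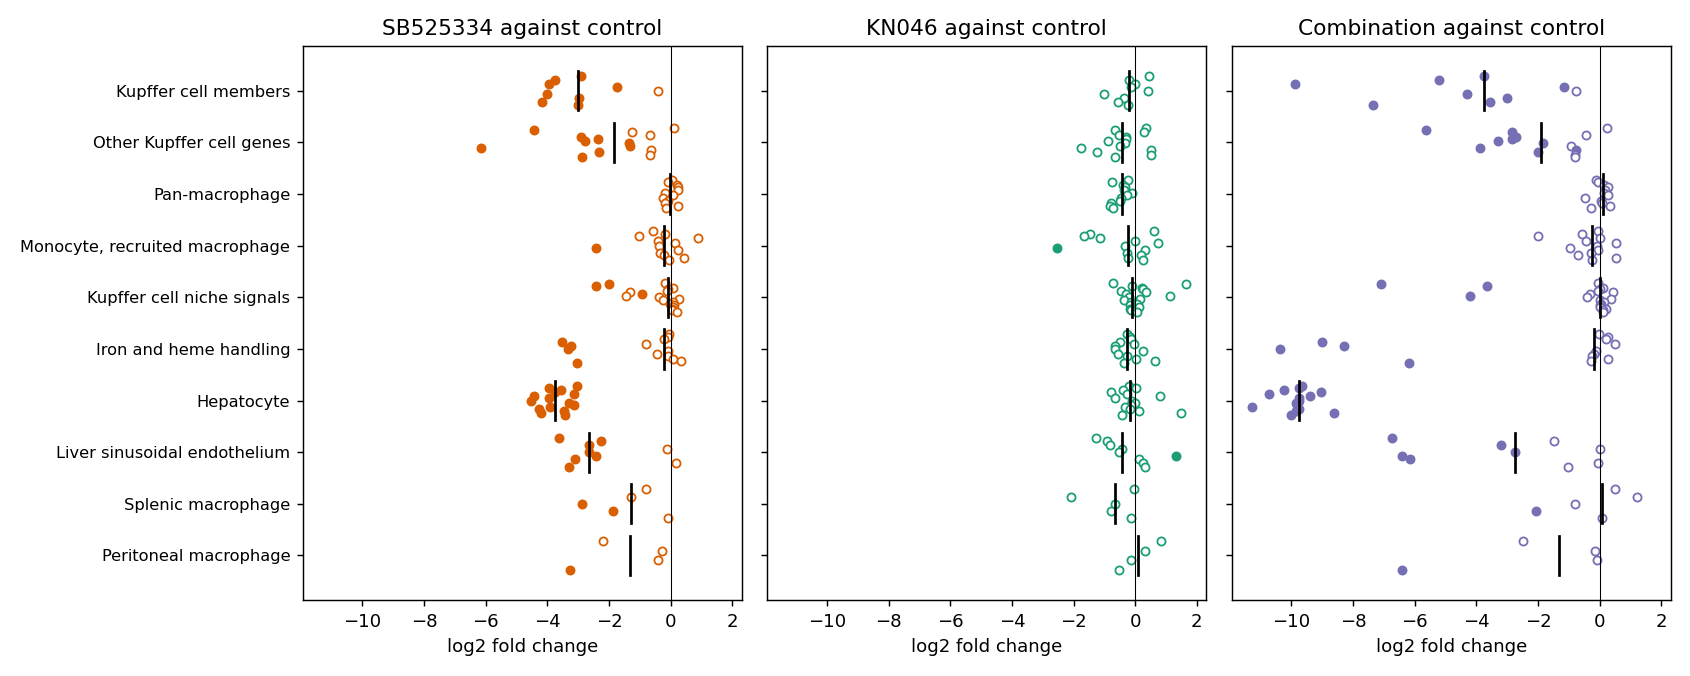
Each point is 1 gene, placed by its log2 fold change against the control group, filled where the adjusted p is under 0.05, and each vertical bar is a list median. The members and the hepatocyte list lie left of 0 with SB525334 and with the combination, and the pan-macrophage list lies around 0.

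Signals of the Kupffer cell niche were a list of 19 ligands, receptors and effectors. Of these, 3 fell with SB525334 and 3 with the combination (medians -0.09 and 0.02, edgeR), against 9.22% and 9.74% of all genes. With KN046 edgeR called 0, with 4 at an unadjusted p under 0.05, and DESeq2 called 3 (2 higher and 1 lower). Without control mice 1 and 2, 1 of the list fell with SB525334. The members of the list that fell with the combination were the ligands Bmp10 (0.350 to 1.52 CPM in the control mice and 0 counts in every combination mouse), Gdf2, which encodes BMP9 (log2 change -4.20), and Bmp2 (-3.64). Bmp2 and Bmp10 also fell with SB525334 (log2 changes -2.42 and -2.01), as did the Notch ligand Dll4 (-0.92, adjusted p = 0.0125). Rbpj, the most abundant gene of the list, had log2 changes of -0.01 and 0.04, and Tgfbr1, the receptor gene that SB525334 targets, 0.05 and 0.11.

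Of 13 genes of iron and heme handling, 4 fell with SB525334 and 4 with the combination, and with KN046 0 were called by edgeR (2 at an unadjusted p under 0.05) and 0 by DESeq2. Those that fell were Trf, Hamp, Hp and Hpx, secreted proteins that hepatocytes make, and Trf, the most abundant, had log2 changes of -3.04 and -6.19. Hmox1, which breaks down heme in macrophages and other cells, averaged 75.0 CPM in control mice, 43.1 in SB525334 mice and 106 in combination mice, and was not called (adjusted p = 0.0965 and 0.319).

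Lists of other cells moved beside the members. All 15 hepatocyte genes fell with SB525334 and with the combination (medians -3.74 and -9.76), with summed levels of 14545 to 16880 CPM in the control mice, 348 to 1916 with SB525334 and 13.3 to 21.9 with the combination. With KN046 0 were called by edgeR (2 at an unadjusted p under 0.05) and 0 by DESeq2. Of 9 genes of liver sinusoidal endothelium, 7 fell with SB525334 and 5 with the combination, 1 (Lyve1, a hyaluronan receptor) rose with KN046 (2 without control mice 1 and 2 and 0 without mice 3 and 4), and the summed range was 224 to 461 CPM in the control mice, 227 to 276 with SB525334 and 242 to 257 with the combination. Of 13 genes of monocytes and recruited macrophages, 1 (Ly6c2, a surface antigen of monocytes) fell with SB525334 and with KN046. With the combination edgeR called 0 (3 at an unadjusted p under 0.05), and DESeq2 called 1 higher and 0 lower. Without control mice 1 and 2, edgeR called 0 of this list in each of these comparisons, and without control mice 3 and 4 it called 0 with KN046. Without control mice 3 and 4 it called 1 higher and 1 lower with SB525334, and the same numbers with the combination. The sums of this list were 2255 to 2914 CPM in the control mice, 1690 to 2706 with SB525334, 2514 to 3010 with KN046 and 1838 to 2292 with the combination. Fn1, its most abundant gene, had 1236 to 1651 CPM in the control mice and 845 to 1236 with the combination. The sums therefore weigh Fn1 above the other genes and do not give the level of these cells. The part of these cells in the member values was not tested beyond the ratios above.

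The tumor cells had been seeded through the spleen, and some members are also expressed by macrophages of the spleen and peritoneum. Of 6 splenic macrophage genes, Cd209b was too low to test, and Spic and Treml4 fell with SB525334 (0 without control mice 1 and 2). Treml4 fell with the combination (-2.07, adjusted p = 0.0110, with 0 lower and 1 higher without that control pair). The summed range was 360 to 386 CPM in the control mice, 308 to 320 with SB525334 and 376 to 459 with the combination. Most of it was Vcam1, at 269 to 297 CPM in the control mice and 296 to 316 with the combination. In those groups Hmox1 had 58.9 to 92.5 and 58.3 to 157 CPM, and Treml4 5.22 to 6.96 and 0.655 to 2.07 CPM. Of 4 peritoneal macrophage genes, Prg4, which hepatocytes also express, fell with SB525334 and with the combination (-3.28 and -6.41). Their sums were 47.1 to 54.0 CPM in the control mice, 28.7 to 33.4 with SB525334 and 30.3 to 35.2 with the combination. Most of these sums was Gata6, at 28.5 to 35.6 CPM in the control mice and 26.3 to 30.8 with the combination. The share of the members' counts that came from such cells was not tested.

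Within groups most members varied together. After each group mean was subtracted, the correlation of a member with the mean over the 9 members across 16 mice (log2(CPM + 1)) was highest for Slc40a1 (r = 0.957), Clec4f (0.934), Cd5l (0.933) and Fcna (0.914), and lower for Marco (0.743) and Cd163 (0.640), where each member is itself part of the mean. Among 12838 genes with a mean of at least 1 CPM, the non-members most like them were Mgam (0.959), Adgre4 (0.953), Lsr (0.929), Cd80 (0.914), Itih5 (0.913), Eng (0.911), Ndufb2 (0.910), C6 (0.905), Sult2a8 (0.901) and Aadac (0.898). Alb had an r of 0.352. These values are descriptions of mice that share libraries and scaling, and the split between the control pairs and the low and high KN046 mice 1 and 2 enter all of them. Adgre4, a receptor of macrophages in the family of F4/80, fell with SB525334 (-3.64, adjusted p = 0.00182), and its change with the combination was -3.37 (adjusted p = 0.00292), and Eng, a co-receptor of endothelial cells for TGF-β and BMP9, fell too (-1.14 and -1.08). Cd80 had log2 changes of -0.67 and -0.37 (adjusted p = 0.232 and 0.508).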

How the data were processed

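Each sample was tumor RNA of 1 labelled mouse, 4 a group. Per the submitters' notes and the paper's methods, reads were trimmed with Cutadapt (2.7), aligned to GRCm39 with HISAT2 (2.2.1) and counted per gene with HTSeq (2.0.4). The authors deposited raw counts and rounded values normalized by DESeq2 (1.38.3), and the deposited counts alone were used here. Settings for strand and for reads with several alignments are not given in the sources used here.

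Counts were joined for 21959 identifiers, of which 21770 had a symbol in GENCODE M39. In R 4.3.3, edgeR 4.0.16 scaled the counts by TMM, kept genes by filterByExpr (minimum count 10), fitted 1 quasi-likelihood model over 16 mice, and adjusted p by Benjamini-Hochberg over the 13968 genes tested, with a threshold of 0.05. The biological coefficient of variation was 20.1%. Ratios to Alb and to pan-macrophage genes used log2 of CPM + 0.5 and exact two-sided permutation tests (SciPy 1.17.1), adjusted over 54 tests, with the non-overlapping share of all genes as background. Intervals of summed counts are exact (95%). A sum of 3 counts is the floor for a fold.

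The members and lists were chosen with earlier results of these data known. A gene fixed for the pan-macrophage list, left out of its sums and counts, and a motif searched are not reported here. Genes named are the 9 members, Alb, the most abundant and lowest-p genes of each list, and the 10 genes most like the members. Lyve1, Ly6c2, Dll4, Spic, Nr1h3, Hmox1, Treml4, Tgfbr1 and Cd209b were named after their values were seen where that rule does not reach them. Alternatives were DESeq2 1.42.0, other scalings and filters, 8 mice alone, the replicate number as a block, merged control pairs, other pseudocounts and hepatocyte genes, and each mouse left out. Leaving out either control pair, merging the pairs for the ratios and using no pseudocount were chosen after seeing the data. Whether same replicate numbers pair the samples was not settled. The edgeR steps were tested on simulated data for the combination against control, in 12 simulations with 200 of 13794 to 13812 genes changed 4-fold: 100% were called in each, with 5 to 12 unchanged genes called and 0 in an unchanged contrast. The simulated libraries were independent with a single spread for all genes, and the changed genes were not of low level, as many up as down. The simulations therefore do not cover alike control pairs, a mostly downward shift or members with few counts.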

Additional observations from a re-analysis of the deposited data

Results flagged for a closer look

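The SB525334 effect on Clec4f and on Vsig4 differed in size with and without KN046. The interaction was -5.94 for Clec4f and -4.13 for Vsig4 on the log2 scale (adjusted p = 0.0213 and 0.00217, edgeR). It was not particular to them, since Alb had -5.84 (adjusted p = 6.01e-06, edgeR) and all 15 hepatocyte genes were called lower. The Clec4f term lost its call in 5 of the alternatives, and Clec4f had 5 counts in the combination group. Clec4f was at 6.52% of its control level with SB525334 and at 0.0937% with the combination, and Vsig4 at 12.5% and 0.618%.

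In the SB525334 group mouse 4 stood apart as the lowest for Slc40a1, at 4.61 CPM against 7.36 to 7.68 CPM in the other mice, and for Fcna, at 1.89 CPM against 2.53 to 2.59 CPM, by Dixon's test for 4 samples. That mouse also had the lowest Alb level of its group, 129 CPM against 487 to 874 CPM, and the lowest value in 8 of 9 members. The share of all genes lowest in that mouse is not given. Of 36 groups of 4 mice examined, 2 held such a mouse, and chance gives about 1 in 20, or 1.8.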

How the results depend on the processing

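Counts of members called kept within 1.5 times the reported count under the alternatives run, except for the interaction, for which 1 member in place of 2 was called when the control pairs were merged and without control mice 3 and 4. With each mouse left out in turn the counts were 8 to 8 for SB525334 against control, 0 to 0 for KN046, 7 to 8 for the combination, 2 to 2 for the combination against SB525334, 7 to 9 for it against KN046, 8 to 8 for SB525334 against KN046, and 1 to 2 for the interaction. Members apart from the controls against Alb numbered 3 to 6 with SB525334 (6 without SB525334 mouse 2), and SB525334 against KN046 2 to 9. With SB525334 they numbered 2 with a pseudocount of 0.1, with none, and when Apoa1, Ttr or the rest of the hepatocyte list replaced Alb, and 8 without control mice 1 and 2. With KN046, 3 were apart against Alb when control mice 1 and 2 or control mice 3 and 4 were left out, 5 against the pan-macrophage genes without control mice 1 and 2, 0 when Ttr replaced Alb, and against the pan-macrophage genes 1 in place of 2 with a pseudocount of 0.1 and with none. The share of all genes is not given for these ratio settings, and the causes were not tested.

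Whether the same replicate numbers pair the mice was not settled. Correlations of deviations were taken only between mice of the same number, without a reference, and ran from -0.483 to 0.527. The fit with the number as a block gave 8, 0, 8, 2, 9, 8 and 2 members in the comparisons above.

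Of 63 values of single members, 13 turned direction somewhere, each without a call. Without control mice 1 and 2 these were, with KN046, 0.84 for Clec4f, 0.27 for Vsig4, 0.33 for Timd4, 0.53 for Cd5l, 0.42 for Slc40a1 and 0.40 for Fcna, with SB525334 0.22 for Folr2, and for the interaction -0.46 for Slc40a1. Without control mice 3 and 4 Folr2 with KN046 was -0.0055. The replicate block gave 0.011 for Slc40a1 between the combination and SB525334. With 1 mouse left out in turn, the KN046 values ran from -0.75 to 0.33 for Clec4f, -0.65 to 0.044 for Vsig4, -0.75 to 0.11 for Cd5l and -0.35 to 0.081 for Fcna, those of the combination against SB525334 from -0.32 to 0.12 for Slc40a1, -0.91 to 0.060 for Marco and -0.61 to 1.04 for Timd4, and the interaction of Timd4 from -0.068 to 1.76. In 6 values a call was lost somewhere: Fcna, Timd4 and Clec4f as given above, and Folr2 and Fcna between the combination and KN046 in 9 and 4 of the alternatives. At 5 and 13 counts over 4 mice, the depth sets the level of Clec4f and Vsig4 with the combination only within the intervals given.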

Other observations

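Combination mice 1 and 4 were higher than mice 2 and 3 in 5 of 9 members: Clec4f, Timd4, Cd5l, Marco and Slc40a1. The share of all genes with that order is not given. For Clec4f this rests on 2 and 2 counts against 1 and 0. For Vsig4 and Cd163 the order was turned around, with mice 2 and 3 higher than mice 1 and 4 in both.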
